A study of Mus musculus with 24 samples.

Results

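The collagen genes were taken from the array annotation by name: every probe with a symbol of the form Col, number, a, number, together with Emid2, the array's name for the gene of the type XXVI collagen chain. This gave 57 probes for 37 genes, of 18120 gene symbols on the array, and 11 of the 37 genes had several probes. The cells came from mouse embryoid bodies at day 6, aggregates in which embryonic stem cells (here of the Ainv15 line) differentiate in culture, and all of them carried a doxycycline-inducible ICN1, the intracellular and signalling part of the receptor Notch1. In the induced bodies ICN1 was switched on from day 3 to day 5 with doxycycline, and the non-induced bodies had no induction. Both were sorted into fractions called CD41 sp, VE sp, DP and DN in the labels, which do not spell these names out. The 8 groups, induced CD41 sp, VE sp, DP and DN cells and non-induced CD41 sp, VE sp, DP and DN cells, had 3 arrays each, 24 in all. The labels do not say whether replicates are separate cultures. The p-values therefore rest on array-to-array spread that may be no more than technical. Because doxycycline came with every induction, the drug and ICN1 cannot be told apart, and a single cell line was used.

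Collagens are secreted or membrane-bound proteins whose chains, alike or different, wind around each other into a helical rod. Fibrillar collagens (types I, II, III, V and XI among them) assemble into the fibrils of connective tissue and cartilage, type IV chains form the sheet-like network of basement membranes, and type VI forms beaded microfibrils between cells and fibrils. In the early embryo and yolk sac, basement membrane collagens lie under endoderm and blood vessels, while mesenchyme is the usual source of the fibrillar ones.

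The start regions of the genes with the main results are shown first. All sequences are from RefSeq on assembly GRCm38.p6, run 5′ to 3′ along the gene's own strand, and span 250 bases before to 50 bases after an annotated start. Col4a1 and Col4a2 encode the chains of the most widespread type IV collagen, are transcribed away from each other, and are shown because their levels followed each other across the groups. The capitals mark the 78 bases that both windows hold, on opposite strands.
Col4a1, chr8:11312777-11313076, minus strand: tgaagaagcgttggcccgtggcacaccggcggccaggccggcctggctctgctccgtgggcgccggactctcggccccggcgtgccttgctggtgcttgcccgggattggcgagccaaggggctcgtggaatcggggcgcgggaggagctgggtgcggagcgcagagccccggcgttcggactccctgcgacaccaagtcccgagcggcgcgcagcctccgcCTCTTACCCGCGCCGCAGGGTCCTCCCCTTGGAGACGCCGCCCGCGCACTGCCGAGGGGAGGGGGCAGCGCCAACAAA
Col4a2, chr8:11312555-11312854, plus strand: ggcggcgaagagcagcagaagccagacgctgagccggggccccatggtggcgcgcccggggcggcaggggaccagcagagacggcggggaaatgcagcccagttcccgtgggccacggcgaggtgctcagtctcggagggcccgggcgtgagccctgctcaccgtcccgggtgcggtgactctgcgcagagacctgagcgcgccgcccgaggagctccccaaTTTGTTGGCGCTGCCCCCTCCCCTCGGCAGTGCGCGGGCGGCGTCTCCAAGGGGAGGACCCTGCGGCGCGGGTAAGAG
Col5a1 and Col18a1 are shown because both were higher with ICN1, Col5a1 in several fractions and Col18a1 in DN. Here the capitals mark either of 2 motifs, searched on both strands. TGGGAA is the core bound by RBPJ, the DNA-binding partner of ICN1, and reads as TTCCCA on the opposite strand. The GC box is GGGCGG, and its opposite strand has the letters CCGCCC. Matches of one motif cannot overlap matches of the other. Col18a1 has windows for 2 annotated starts.
Col5a1, chr2:27886175-27886474, plus strand: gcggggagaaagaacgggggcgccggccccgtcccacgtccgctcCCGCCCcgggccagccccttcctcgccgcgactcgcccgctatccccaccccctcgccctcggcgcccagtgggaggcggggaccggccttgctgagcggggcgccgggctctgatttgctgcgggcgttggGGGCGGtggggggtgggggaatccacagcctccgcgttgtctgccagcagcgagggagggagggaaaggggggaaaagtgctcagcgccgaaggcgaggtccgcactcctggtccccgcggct
Col18a1, chr10:77113656-77113955, minus strand: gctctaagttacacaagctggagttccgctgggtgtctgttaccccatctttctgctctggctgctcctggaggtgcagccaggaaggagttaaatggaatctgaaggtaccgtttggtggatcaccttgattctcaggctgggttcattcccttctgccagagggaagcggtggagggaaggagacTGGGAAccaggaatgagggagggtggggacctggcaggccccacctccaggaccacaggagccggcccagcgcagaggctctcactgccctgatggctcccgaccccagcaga
Col18a1, chr10:77166481-77166780, minus strand: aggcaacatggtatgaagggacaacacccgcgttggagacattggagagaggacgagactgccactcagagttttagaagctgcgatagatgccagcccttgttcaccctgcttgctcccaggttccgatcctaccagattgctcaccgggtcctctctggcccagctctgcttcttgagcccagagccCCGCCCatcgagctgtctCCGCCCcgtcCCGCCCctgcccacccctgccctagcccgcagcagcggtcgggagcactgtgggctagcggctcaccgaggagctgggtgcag
The Col5a1 window held no TGGGAA and GGGCGG at 2 places, in a sequence of 75.0% G and C. Of the Col18a1 windows, the one at chr10:77113656-77113955 held TGGGAA once, 63 bases before the start, and the one at chr10:77166481-77166780 held GGGCGG at 3 places. The table had 32 windows for 29 of the 37 collagen genes, among 32851 windows in all. TGGGAA stood in 9 of the 32 collagen windows (28.1%), against 25.6% of all windows. GGGCGG stood in 19 of the 32 (59.4%), against 35.7% of all windows. These are matches of letters, not sites.

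Some collagen genes are neighbours in the genome, by their order in the same RefSeq annotation. Col3a1 and Col5a2 were next to each other on chromosome 1, as were Col9a1 and Col19a1, and Col4a4 and Col4a3. On chromosome 10, 2 other annotated genes stood between Col6a2 and Col6a1, and 6 between Col6a1 and Col18a1. Col4a6 and Col4a5, on the X chromosome, had 2 other annotated genes between them and point away from each other.

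The mean raw intensity of an array was between 165 and 656, and 41.8% to 51.3% of the probes were detected, meaning a detection p-value under 0.05. The induced arrays of replicate 2 had mean intensities of 198 to 314 and the non-induced arrays of replicate 2 had 425 to 474. The sort names were checked with their marker genes. Itga2b, which encodes the CD41 antigen, was higher than in DN by 3.08 on the log2 scale in non-induced CD41 sp cells and by 3.35 in non-induced DP cells, and by a smaller 1.61 in VE sp. Cdh5, which encodes VE-cadherin, was not detected in CD41 sp or DN cells of either condition, and stood at least 45.6-fold higher in non-induced VE sp and at least 27.6-fold higher in non-induced DP cells than in non-induced DN. The Notch1 probe was not called in any induction: its log2 difference, induced minus non-induced, was 1.09 in DN, 0.82 in CD41 sp, 0.20 in VE sp and -0.30 in DP (SE 0.32 each, limma's adjusted p 0.179 to 1). With replicate numbers as a block, Notch1 passed in DN (adjusted p = 0.00295). Where this probe lies in the transcript was not examined.

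A gene entered the tests if a probe was detected on all 3 arrays of at least 1 group, and 21 of the 37 collagen genes did (56.8%), against 52.9% of all symbols. By class, these were 6 of 11 fibrillar genes, 4 of 6 basement membrane genes, both type VI genes, both multiplexins, 2 of 4 transmembrane collagens, 3 of 7 FACIT collagens (which sit on the surface of fibrils), and 2 of the remaining 3, Col7a1 and Emid2. Neither of the short chain genes, Col8a2 and Col10a1, entered. Col16a1, Col6a2, Col9a1 and Col9a2 entered through induced DN alone. Col5a2 entered through induced VE sp alone, Col15a1 through non-induced VE sp alone and Col11a2 through non-induced DN alone. Calls in which that group is the higher one rest in part on the filter. Of the 16 genes left out, 12 were detected on no array: Col1a2, Col5a3, Col11a1, Col24a1, Col27a1, Col4a3, Col4a4, Col9a3, Col8a2, Col10a1, Col13a1 and Col28a1. The other 4, Col12a1, Col14a1, Col17a1 and Col19a1, were detected on 1 or 2 arrays. All probes of the 16 genes lay between 4.23 and 5.49 on the log2 scale of normalized intensity. Col1a1 was thus measured without its partner chain Col1a2, and the type IV chains Col4a3 and Col4a4, known from kidney and other late basement membranes, gave no measurable signal.

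**Figure D1:**
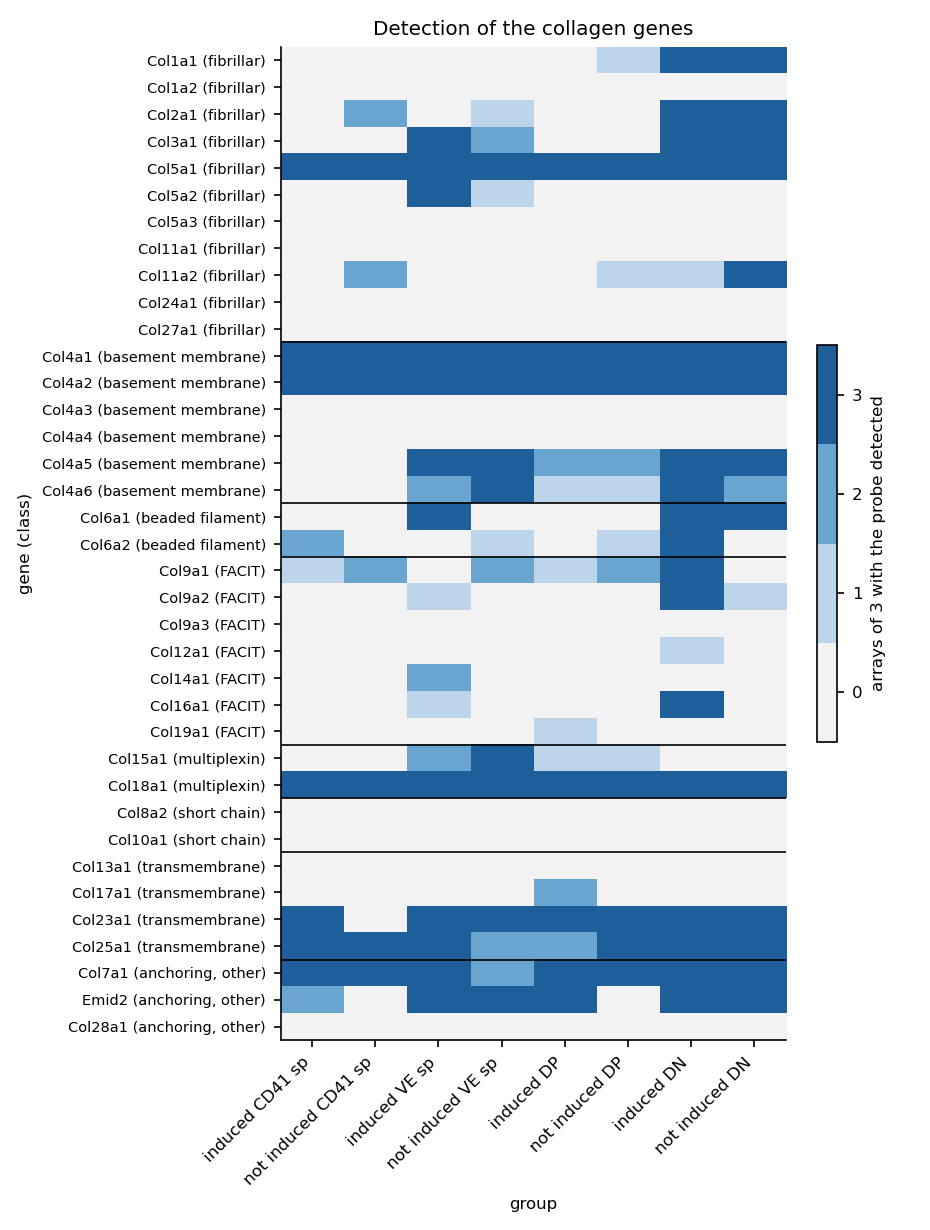
Number of arrays, of 3 in each group, on which each of the 37 collagen genes was detected. The probe is the tested one or, for a gene that was not tested, the one detected on the most arrays. Genes run down the page by class and groups across it, with induced cells left of non-induced cells. Col4a1, Col4a2, Col5a1 and Col18a1 were detected on every array, and 12 genes on none.

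In non-induced bodies the fractions differed in the kind of collagen they expressed. VE sp cells had the highest levels of the basement membrane chains Col4a1 and Col4a2, of Col15a1 and of Col23a1, and shared a high level of Col18a1 with DP cells. DN cells had the highest levels of the fibrillar Col1a1, Col2a1, Col3a1 and Col5a1. Of the 21 genes tested, 5 were higher and 7 lower in VE sp than in DN, where 24.7% of all genes were called, 12.4% higher and 12.2% lower. In DP, 2 were higher and 6 lower than in DN (22.1% of all genes called, 11.2% higher and 10.9% lower), and with the replicate number as a block 2 were higher and 8 lower (39.3% called), the added ones being Col11a2 (-0.39, adjusted p = 0.136, and 0.0458 with the block) and Col7a1 (-0.63, adjusted p = 0.0828, and 0.0248 with the block). In CD41 sp, 10 were lower than in DN and none was higher (15.7% of all genes called, 7.06% higher and 8.63% lower). Medians over the 21 genes were -0.07 for VE sp minus DN, -0.27 for DP minus DN and -0.47 for CD41 sp minus DN, and over all genes they were -0.09, -0.04 and 0.02. These comparisons share the 3 DN arrays. Between the other fractions, 6 were lower and none higher in DP than in VE sp (10.2% of all genes called, 3.91% higher and 6.3% lower), and with the block Col5a1 was lower as well (-1.08, adjusted p = 0.0608, and 0.00049 with the block, where 21.5% were called). In CD41 sp, 8 were lower and 1 higher than in VE sp (28.8% called, 14.3% higher and 14.6% lower), and with the block Col5a2 was lower as well (-0.44, adjusted p = 0.134, and 0.0437 with the block, where 47.6% were called). Against DP, 4 were lower and 1 higher in CD41 sp (12.3% called, 5.2% higher and 7.11% lower). In sorted populations like these, fewer cells of a type and less RNA per cell cannot be told apart.

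Col4a1 had 12.92, 13.66 and 12.92 on the log2 scale on the arrays of non-induced VE sp cells, 11.49, 10.42 and 9.81 in DP, 6.63, 6.43 and 6.61 in CD41 sp, and 9.98, 9.79 and 10.39 in DN. Its partner Col4a2 had 12.26, 13.19 and 12.33 in VE sp, 11.00, 10.43 and 9.30 in DP, 5.49, 5.53 and 5.31 in CD41 sp, and 8.94, 9.48 and 9.23 in DN. For both chains every VE sp array lay above every other array and every CD41 sp array below, while DP and DN overlapped. Against DN, Col4a1 was higher in VE sp by 3.11 (SE 0.35), which is 8.65-fold, and Col4a2 by 3.38 (SE 0.33), 10.4-fold, with limma's adjusted p of 6.56e-07 and 8.2e-08. In CD41 sp cells both were lower than in DN, with a log2 difference of -3.50 for Col4a1 (adjusted p = 2.15e-07) and -3.78 for Col4a2 (adjusted p = 3.27e-08). CD41 sp minus VE sp was the widest gap, -6.61 for Col4a1 and -7.15 for Col4a2 (adjusted p = 1.14e-11 and 2.08e-12). Col4a2 was also called higher in DP than in DN, by 1.03 (adjusted p = 0.0284), though the arrays overlapped, and the call was lost without any one of DP replicate 1 (0.65, adjusted p = 0.211), DP replicate 2, DN replicate 1 or DN replicate 3. Col4a1 in DP was not called against DN.

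The other type IV genes, Col4a5 and Col4a6, encode the chains of a network found in smooth muscle, skin and kidney basement membranes. Col4a5 had 6.00, 6.64 and 7.02 in VE sp, 5.40, 5.33 and 5.11 in DP, 4.43, 4.69 and 4.54 in CD41 sp, and 5.27, 5.37 and 6.77 in DN. VE sp and DN thus overlapped, and all CD41 sp arrays were below both, with the probe not detected there. It was at least 1.67-fold lower in CD41 sp than in DN (log2 difference -1.25, SE 0.37, adjusted p = 0.0227), but without DN replicate 3 the difference was -0.77 (adjusted p = 0.198), and the call was also lost without CD41 sp replicate 1 or 3. Against VE sp it was at least 2.81-fold lower in CD41 sp (adjusted p = 0.00023). Col4a6 stayed between 4.58 and 5.50 on all non-induced arrays and was called between CD41 sp and VE sp (-0.63, adjusted p = 0.0331), a call that was lost without any 1 of 5 arrays of these groups.

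Col18a1 and Col15a1 are the multiplexins, basement membrane proteoglycans of vessel walls and epithelia, and the end fragment of Col18a1 is endostatin. Col18a1 had 13.55, 14.32 and 13.99 in VE sp, 13.59, 14.36 and 13.54 in DP, 11.11, 11.78 and 11.90 in CD41 sp, and 10.89, 11.48 and 11.29 in DN. The VE sp and DP arrays overlapped and lay above all CD41 sp and DN arrays, which in turn overlapped. It was 6.64-fold higher in VE sp (log2 difference 2.73, SE 0.32, adjusted p = 1.05e-06) and 6.09-fold higher in DP (2.61, SE 0.32, adjusted p = 1.98e-06) than in DN. Another Col18a1 probe, detected on all 24 arrays, gave 2.67 and 2.47, and a further probe, detected on 10 arrays, was not tested because it was not detected on all 3 arrays of any group. Col15a1 had 6.16, 7.17 and 6.36 in VE sp, and 4.43 to 5.18 on the arrays of DP, CD41 sp and DN. It was at least 3.04-fold higher in VE sp than in DN, where it was not detected (log2 difference 2.09, SE 0.22, adjusted p = 2.04e-07), and it was lower in DP than in VE sp (-1.76, adjusted p = 8.89e-06).

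Col23a1 is a transmembrane collagen that can be shed from the cell surface. Its levels were 7.90, 8.02 and 8.19 in VE sp, 6.42, 6.21 and 6.39 in DP, 4.61, 4.71 and 4.98 in CD41 sp, and 6.10, 5.76 and 6.48 in DN. All VE sp arrays were highest and all CD41 sp arrays, where it was not detected, lowest. It was 3.80-fold higher in VE sp than in DN (log2 difference 1.93, SE 0.20, adjusted p = 1.83e-07) and at least 2.07-fold lower in CD41 sp than in DN (-1.35, adjusted p = 3.21e-05). Col25a1, a transmembrane collagen best known from the brain and motor nerves, showed little spread: 5.06 to 5.49 in VE sp, 5.15 to 5.55 in DP, 5.45 to 5.91 in CD41 sp and 5.24 to 5.90 in DN, with no fraction called against DN.

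**Figure D2:**
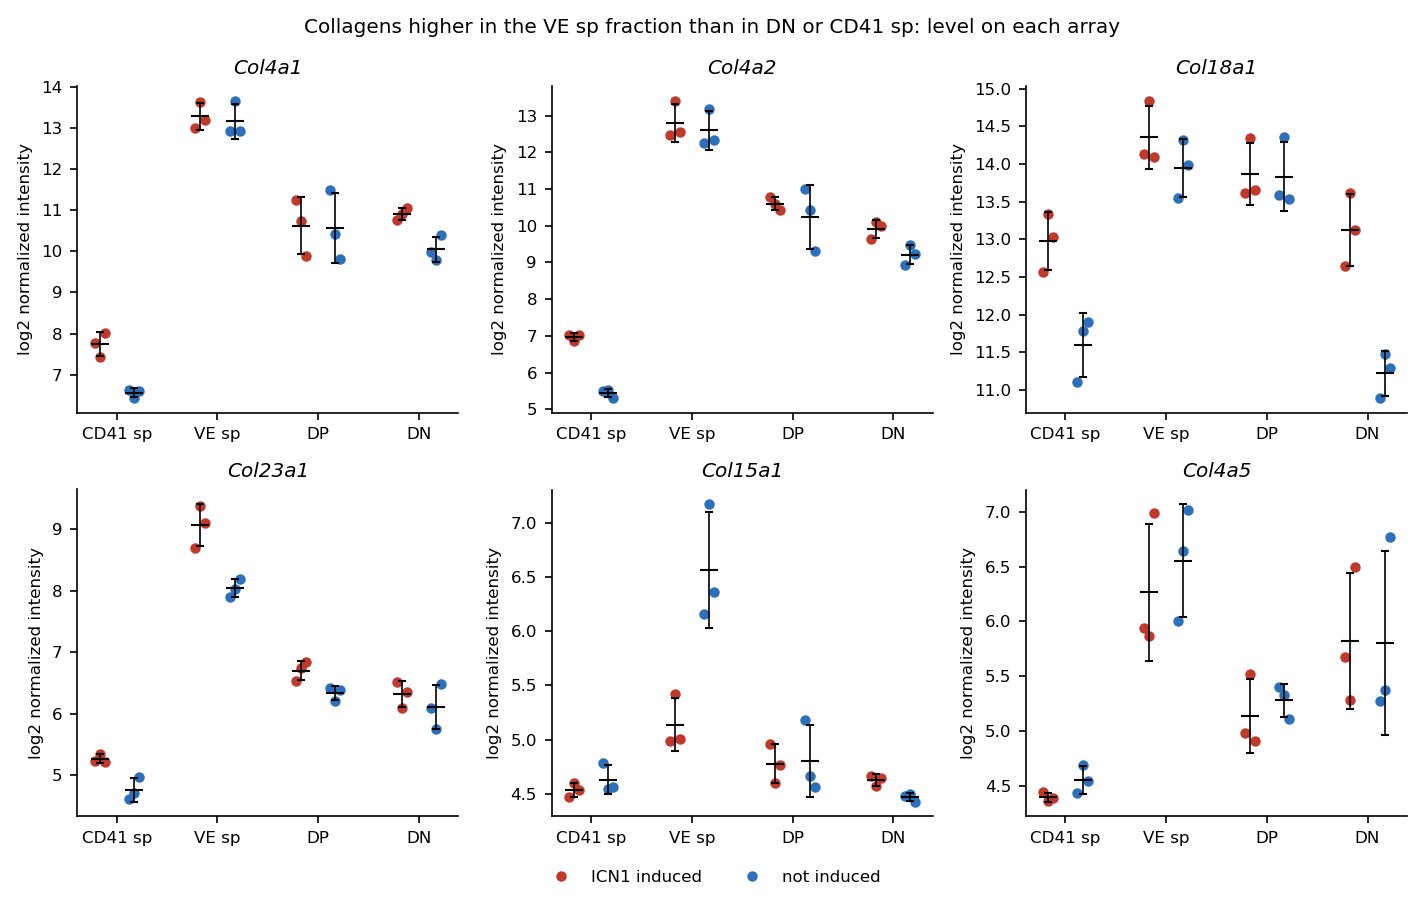
Normalized intensity (log2) on each array for 6 collagens that were higher in non-induced VE sp than in DN or CD41 sp cells; points are arrays, red for induced and blue for non-induced, the long bar is the mean and the error bar the SD of 3 arrays, and each panel has its own scale. Col4a1 and Col4a2 were highest in VE sp and lowest in CD41 sp in both conditions, and Col15a1 in VE sp was lower with induction.

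Among the fibrillar genes, Col1a1 (the main chain of type I collagen, typical of mesenchyme) stayed between 4.36 and 4.84 in non-induced VE sp, DP and CD41 sp cells, where it was detected on 1 array, of DP. In non-induced DN cells it had 7.05, 7.96 and 6.06, all above the other fractions. It was at least 3.99-fold lower in VE sp than in DN (log2 difference -2.50, SE 0.30, adjusted p = 1.68e-06) and at least 3.89-fold lower in CD41 sp (-2.43, adjusted p = 3.82e-06), and lower in DP (-2.48, adjusted p = 1.86e-06). Col3a1, which forms fibrils with type I collagen in vessels and soft tissues, had 4.41, 5.03 and 5.39 in VE sp, 4.37 to 4.71 in DP and CD41 sp, and 5.47, 7.11 and 5.81 in DN. It was called lower than DN in CD41 sp (at least 2.09-fold), DP (at least 2.23-fold) and VE sp (-1.19, adjusted p = 0.00809). In VE sp the call was lost without VE sp replicate 1 (-0.92, adjusted p = 0.0552) or DN replicate 2 (-0.70, adjusted p = 0.0714). Another Col3a1 probe was detected on no array.

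Col2a1, the main collagen of cartilage and also made by early epithelia, had 4.88, 4.75 and 4.46 in VE sp, 4.70, 4.77 and 4.87 in DP, 5.07, 4.77 and 5.53 in CD41 sp, and 7.02, 5.43 and 7.43 in DN. DN replicate 2 lay well below the other DN arrays and within the range of CD41 sp. Col2a1 was lower than DN in VE sp (log2 difference -1.93, SE 0.38, adjusted p = 0.000508), in DP (at least 3.14-fold, adjusted p = 0.000807) and in CD41 sp (-1.50, adjusted p = 0.00685), where leaving out DN replicate 3 gave -1.10 (adjusted p = 0.0693). The other detected Col2a1 probe gave -1.66, -1.39 and -1.37 for VE sp, DP and CD41 sp, each past the threshold. Col5a1, which starts and limits the width of type I fibrils, was the one fibrillar gene detected on every array: 6.97, 7.30 and 7.62 in VE sp, 5.98, 6.83 and 5.86 in DP, 7.04, 7.52 and 7.83 in CD41 sp, and 8.36, 9.35 and 9.28 in DN. All DN arrays were above all others. It was lower than DN in DP (log2 difference -2.78, SE 0.36, adjusted p = 3.48e-06), in VE sp (-1.70, adjusted p = 0.00103) and in CD41 sp (-1.53, adjusted p = 0.00362). Its partner Col5a2 was detected on 1 non-induced array and was called in none of these comparisons. Col11a2 lay between 4.36 and 5.30 and was called at least 1.09-fold lower in VE sp than in DN, a call lost without any 1 of 3 arrays.

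The type VI gene Col6a1 lay at 4.39 to 4.86 in non-induced CD41 sp, VE sp and DP cells, where this probe was not detected, and had 5.06, 5.62 and 5.31 in DN. It was called lower than DN in CD41 sp (at least 1.20-fold), VE sp (at least 1.23-fold) and DP (at least 1.28-fold), with adjusted p of 0.00972, 0.0234 and 0.00657. Without DN replicate 2 the call was lost in CD41 sp (-0.69, adjusted p = 0.0608) and in VE sp (-0.55, adjusted p = 0.114). Emid2, little studied and named for its EMI domain, had 7.16, 5.75 and 7.14 in VE sp, 4.78, 4.34 and 4.44 in DP, 4.51, 4.31 and 4.43 in CD41 sp, and 7.62, 5.25 and 7.01 in DN. VE sp and DN overlapped, and DP and CD41 sp, where it was not detected, were below both. It was at least 2.96-fold lower in CD41 sp and at least 3.15-fold lower in DP than in DN (adjusted p = 0.0057 and 0.00623), and without DN replicate 1 both missed the threshold (-1.72 and -1.61, adjusted p = 0.0534 and 0.0548). Col7a1, the collagen of the anchoring fibrils under the epidermis, was lower in VE sp (5.47, 5.18 and 4.67) than in DN (6.35, 6.09 and 6.52), with a log2 difference of -1.21 (SE 0.25, adjusted p = 0.000953). That call was lost with the authors' processed intensities, and another Col7a1 probe was detected on no array. The FACIT genes Col9a1, Col9a2 and Col16a1 stayed between 4.35 and 5.44 in the non-induced fractions, with no call against DN.

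**Figure D3:**
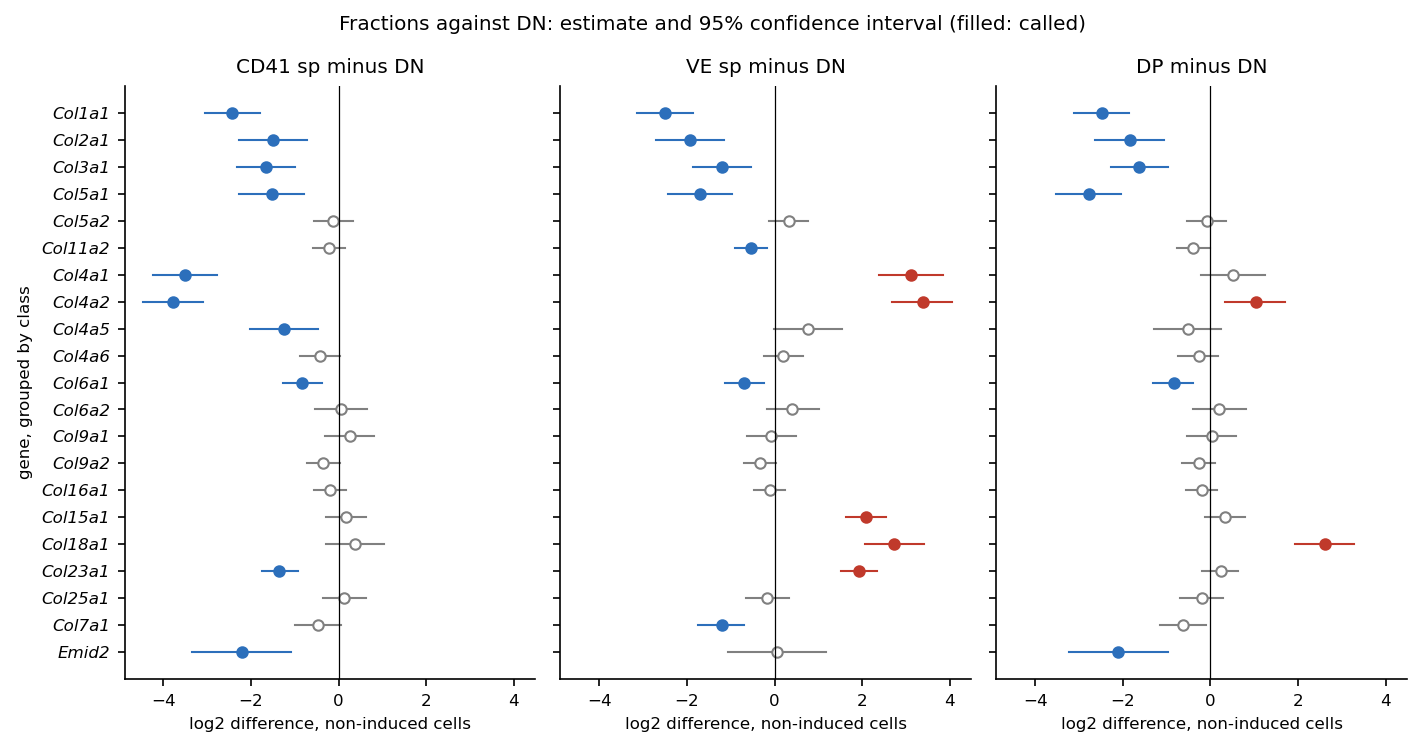
Log2 difference of non-induced CD41 sp, VE sp and DP cells minus non-induced DN cells for the 21 tested collagen genes, with 95% confidence intervals; filled red points were called higher, filled blue points called lower and open points not called. Col4a1 and Col4a2 lay far below 0 in CD41 sp and far above it in VE sp, and Col1a1, Col2a1, Col3a1 and Col5a1 lay below 0 in all 3 panels.

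The same fractions were compared among induced cells. There 13 collagen genes were lower in CD41 sp than in DN and none was higher, where 15.7% of all genes were called, 5.96% higher and 9.74% lower. In VE sp 5 were higher and 7 lower (26.4% called, 13.2% in each direction). With the block 7 were higher and 8 lower in VE sp, where 46.2% of all genes were called. The added ones were Emid2 (1.44, adjusted p = 0.0534, and 0.000621 with the block), Col15a1 (0.51, adjusted p = 0.0929, and 0.0446 with the block) and Col6a2 (-0.67, adjusted p = 0.0889, and 0.0266 with the block). In DP 10 were lower and none higher (20.7% called, 10.4% higher and 10.3% lower). Medians over the 21 genes were -1.05 in CD41 sp, -0.12 in VE sp and -0.69 in DP, against 0.02, -0.07 and -0.02 over all genes. In induced CD41 sp cells Emid2 was lower than in DN (log2 difference -3.43, SE 0.54, adjusted p = 6.95e-05), as were Col4a1 (-3.17, SE 0.35, adjusted p = 8.3e-07) and Col6a1, at least 5.26-fold (adjusted p = 6.17e-09). In induced VE sp cells Col4a2 was higher than in DN by 2.90, Col23a1 by 2.74, Col4a1 by 2.37, Col18a1 by 1.23 and Col5a2 by 1.06, at least 1.79-fold. In induced DP cells Col18a1 was not called against DN (0.74, adjusted p = 0.122, and 0.000891 with the block, where 35.5% of all genes were called), with 13.61, 14.34 and 13.65 in DP and 12.65, 13.61 and 13.12 in DN. The other Col18a1 probe detected on all 24 arrays gave 0.88 for this difference and was called (adjusted p = 0.00536).

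The question of the study was what ICN1 changes in each fraction. In VE sp cells 5 collagen genes rose (Emid2, Col5a1, Col23a1, Col6a1 and Col5a2) and Col15a1 fell, where 1.12% of all genes were called, 0.959% higher and 0.156% lower. In DN cells 5 rose (Emid2, Col6a1, Col5a1, Col18a1 and Col16a1) and none fell (0.97% of all genes called, 0.772% higher and 0.198% lower). Among the genes called in VE sp and DN, Col16a1 entered the tests through induced DN alone. Col5a2 entered through induced VE sp alone and Col15a1 through non-induced VE sp alone. The counts in VE sp and DN thus rest in part on the detection filter. In DP cells Col5a1 rose, where 0.146% of all genes were called, 0.0938% higher and 0.0521% lower, and with the block Emid2 passed as well (1.63% called). In CD41 sp cells none of the 21 was called by limma (0.0938% of all genes called, 0.073% higher and 0.0209% lower), with 6 at an unadjusted p under 0.05. With the block 3 were higher there, where 0.918% of all genes were called. Averaged over the fractions, 7 rose and none fell (3.02% of all genes called, 2.06% higher and 0.959% lower), and with the block 9 rose and 1 fell (12.8% called). The added ones were Col4a1 and Col5a2 (0.29, adjusted p = 0.197, and 0.0336 with the block), which rose, and Col15a1 (-0.35, adjusted p = 0.107, and 0.0278 with the block), which fell. The median over the 21 genes was 0.27 for DN, 0.22 for VE sp, 0.06 for CD41 sp, 0.02 for DP and 0.14 for the average, against 0.01, 0.01, -0.01, 0.02 and 0 over all genes. These responses compare separate pairs of groups and share no arrays between fractions.

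Col5a1 was the fibrillar gene with the broadest rise. In induced VE sp cells it had 9.13, 9.65 and 9.69, against 6.97, 7.30 and 7.62 in non-induced VE sp. In induced DP cells it had 7.95, 8.92 and 8.53, against 5.98, 6.83 and 5.86 in non-induced DP. In induced DN cells it had 10.27, 11.20 and 11.47, against 8.36, 9.35 and 9.28 in non-induced DN. In all 3 fractions every induced array lay above every non-induced one. The rise was 2.19 in VE sp (95% interval 1.45 to 2.93, 4.57-fold, adjusted p = 0.00181), 2.25 in DP (1.51 to 2.99, 4.74-fold, adjusted p = 0.00739) and 1.98 in DN (1.24 to 2.72, 3.95-fold, adjusted p = 0.00497). In CD41 sp it had 8.59, 9.30 and 9.23 in induced cells and 7.04, 7.52 and 7.83 in non-induced cells, again without overlap. That difference of 1.57 (0.83 to 2.31) had an adjusted p of 0.116, and of 0.000211 with the block. In DP the call missed the threshold without non-induced DP replicate 3 (2.06, adjusted p = 0.0549). The calls in VE sp, DP and DN were each lost without replicate set 2 or 3. The average over fractions was 2.00 (SE 0.18, adjusted p = 6.96e-07).

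The other fibrillar genes gave fewer calls. Col5a2, the partner chain of Col5a1, was detected on all 3 arrays in induced VE sp only, with 5.60, 6.30 and 5.29, against 4.69, 5.27 and 4.46 in non-induced VE sp, where it was detected on 1 array. Every induced array was above every non-induced one, if only by 0.02 at the closest. The rise of 0.93 (SE 0.21, adjusted p = 0.032) was lost without induced VE sp replicate 1 (0.99, adjusted p = 0.0697) or 2 (0.64, adjusted p = 0.236), or non-induced VE sp replicate 1 (0.87, adjusted p = 0.153) or 3 (0.75, adjusted p = 0.183). Col1a1 in DN had 7.57, 7.96 and 7.26 in induced cells and 7.05, 7.96 and 6.06 in non-induced cells, which overlapped (difference 0.58, adjusted p = 0.832). Col3a1 in DN had 6.56, 7.41 and 6.88 in induced cells and 5.47, 7.11 and 5.81 in non-induced cells, also with overlap (0.82, adjusted p = 0.497). Col2a1 in DN had 6.72, 5.43 and 6.77 in induced cells and 7.02, 5.43 and 7.43 in non-induced cells, with replicate 2 low in both conditions. In VE sp, Col3a1 had 4.95, 5.43 and 5.21 in induced cells and 4.41, 5.03 and 5.39 in non-induced cells. Neither Col1a1, Col2a1, Col3a1 nor Col11a2 was called in any fraction.

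Emid2 had the largest estimate among the collagens in VE sp. It had 10.60, 9.86 and 11.19 in induced VE sp cells, against 7.16, 5.75 and 7.14 in non-induced VE sp, without overlap. The rise was 3.86 (95% interval 2.74 to 4.99, 14.6-fold, adjusted p = 0.000542), and its call was lost without replicate set 1 or 3. In DN Emid2 had 9.47, 8.26 and 9.58 in induced cells and 7.62, 5.25 and 7.01 in non-induced cells, a rise of 2.48 (SE 0.54, 5.57-fold, adjusted p = 0.0249). This call was lost without induced DN replicate 1 (2.29, adjusted p = 0.126), induced DN replicate 3 (2.24, adjusted p = 0.135) or non-induced DN replicate 2 (1.79, adjusted p = 0.171). In DP it had 7.32, 6.01 and 7.05 in induced cells and 4.78, 4.34 and 4.44 in non-induced cells, where it was not detected. That difference, at least 3.53-fold, had an adjusted p of 0.112, and of 0.000483 with the block. In CD41 sp it had 5.80, 4.84 and 6.39 in induced cells and 4.51, 4.31 and 4.43 in non-induced cells (at least 1.53-fold, adjusted p = 1). Replicate 2 was the lowest of the 3 arrays in every group. On average over fractions Emid2 rose by 2.47 (SE 0.27, adjusted p = 1.44e-05).

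The beaded filament gene Col6a1 responded in DN and, by a smaller estimate, in VE sp. In DN it had 6.76, 7.82 and 7.57 in induced cells and 5.06, 5.62 and 5.31 in non-induced cells, a rise of 2.06 (95% interval 1.60 to 2.51, 4.16-fold, adjusted p = 1.89e-05). In VE sp it had 5.42, 5.79 and 5.75 in induced cells and 4.51, 4.55 and 4.86 in non-induced cells, where it was not detected (at least 1.54-fold, adjusted p = 0.0187). The groups did not overlap in either fraction. In CD41 sp and DP it lay between 4.39 and 4.71 in both conditions and was not detected by this probe. The VE sp call was lost without induced VE sp replicate 2 (0.94, adjusted p = 0.104) or 3 (0.96, adjusted p = 0.0942), or non-induced VE sp replicate 1 (0.95, adjusted p = 0.102) or 2 (0.97, adjusted p = 0.0785). The other detected Col6a1 probe gave 2.31 in DN (adjusted p = 6.48e-06) and 1.14 in VE sp (adjusted p = 0.011), and a further probe was detected on no array. Its partner Col6a2 was detected on all 3 arrays in induced DN alone, with 5.20, 5.31 and 5.55, against 4.76, 4.54 and 4.75 in non-induced DN, and was not called (at least 1.31-fold, adjusted p = 0.627). Elsewhere Col6a2 lay between 4.45 and 6.01, the top value being on non-induced VE sp replicate 3.

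**Figure D4:**
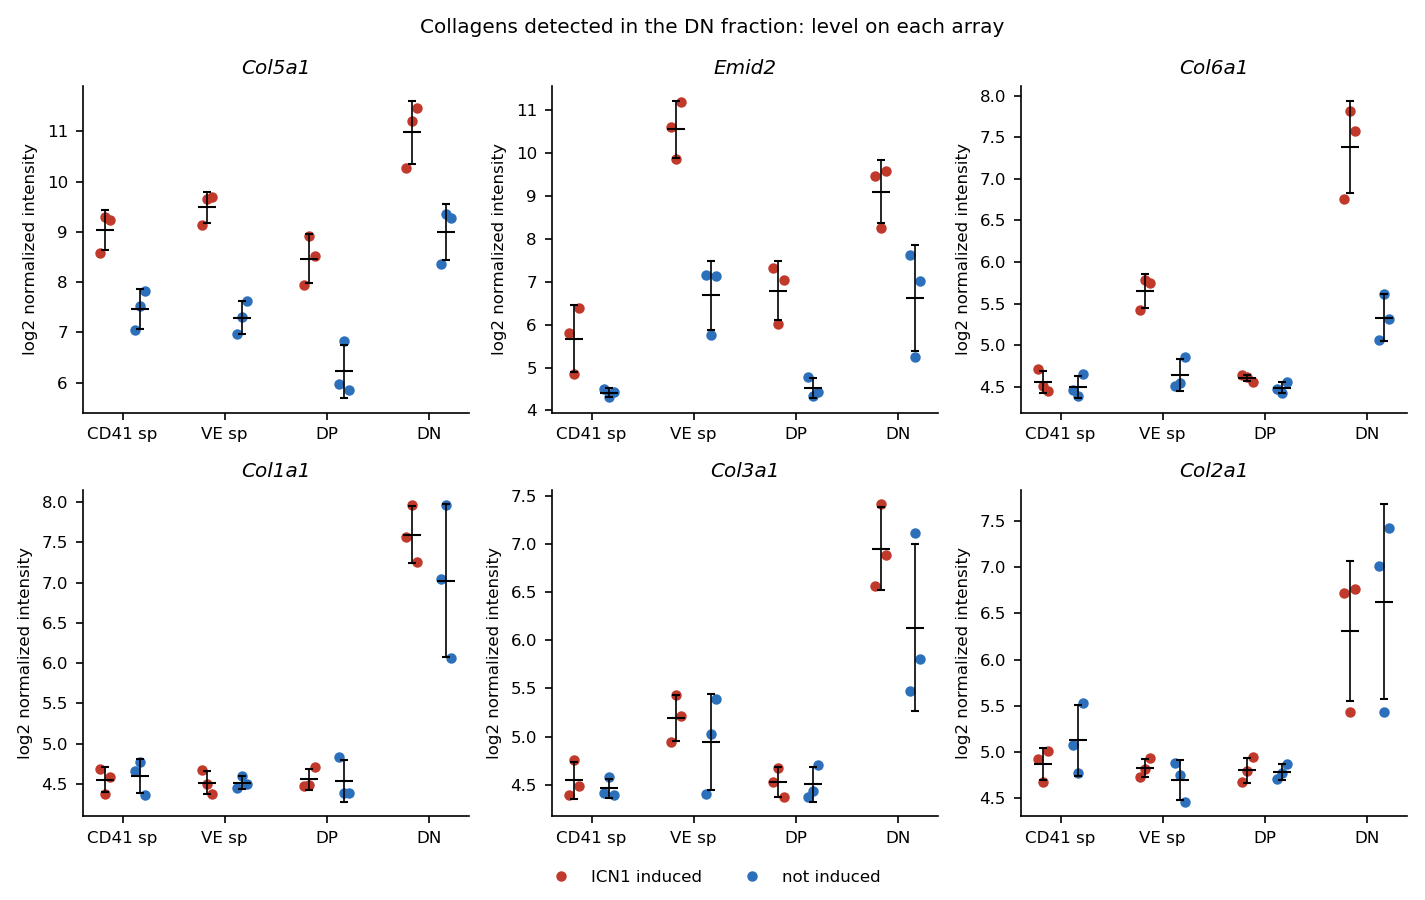
Normalized intensity (log2) on each array for 6 collagens detected in DN cells; points are arrays, red for induced and blue for non-induced, the long bar is the mean and the error bar the SD of 3 arrays, and each panel has its own scale. Col5a1 and Emid2 were higher on induced arrays in every fraction, Col6a1 in DN and VE sp, and Col1a1 and Col2a1 stayed near the floor outside DN.

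Both multiplexins changed, in different fractions. Col18a1 in DN had 12.65, 13.61 and 13.12 in induced cells and 10.89, 11.48 and 11.29 in non-induced cells, a rise of 1.91 (95% interval 1.24 to 2.57, 3.75-fold, adjusted p = 0.00251). This call was lost without replicate set 1 or 3. In CD41 sp Col18a1 had 12.57, 13.34 and 13.03 in induced cells and 11.11, 11.78 and 11.90 in non-induced cells, also without overlap. The CD41 sp difference of 1.38 had an adjusted p of 0.128, of 7.95e-05 with the block, and the other probe detected on all 24 arrays gave 1.39 (adjusted p = 0.00461). In VE sp it had 14.13, 14.84 and 14.09 in induced cells and 13.55, 14.32 and 13.99 in non-induced cells, and in DP it had 13.61, 14.34 and 13.65 in induced cells and 13.59, 14.36 and 13.54 in non-induced cells. Both of these overlapped, and the DP difference was 0.04 (95% interval -0.63 to 0.71). Col15a1 in VE sp had 4.99, 5.42 and 5.01 in induced cells and 6.16, 7.17 and 6.36 in non-induced cells, without overlap, and it was detected on 2 of the 3 induced arrays. It fell there (log2 difference -1.42, SE 0.22, adjusted p = 0.00116), the one fall called within a fraction among the collagens. The call was lost with median scaling, with the authors' processed intensities, and without the arrays of replicate 1 or of replicate 3. In the other fractions Col15a1 lay between 4.43 and 5.18 and was not called.

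The basement membrane chains gave no call within a fraction. Col4a1 in VE sp had 13.01, 13.63 and 13.20 in induced cells and 12.92, 13.66 and 12.92 in non-induced cells, a difference of 0.11 (95% interval -0.63 to 0.85). Col4a2 in VE sp had 12.48, 13.40 and 12.54 in induced cells and 12.26, 13.19 and 12.33 in non-induced cells, a difference of 0.22 (-0.47 to 0.90). In DP the arrays of the conditions also overlapped: Col4a1 had 11.26, 10.73 and 9.88 in induced and 11.49, 10.42 and 9.81 in non-induced cells. Col4a2 in DP had 10.79, 10.60 and 10.42 in induced and 11.00, 10.43 and 9.30 in non-induced cells. In CD41 sp and DN the arrays of the conditions did not overlap for either gene. A difference of response among fractions was not called for Col4a1 or Col4a2, with or without the block (F test, adjusted p = 0.373 and 0.222 with the block). Col4a2 in CD41 sp had 7.03, 6.85 and 7.03 in induced cells and 5.49, 5.53 and 5.31 in non-induced cells. Col4a1 in CD41 sp had 7.77, 7.43 and 8.01 in induced cells and 6.63, 6.43 and 6.61 in non-induced cells. Neither overlapped, with differences of 1.53 for Col4a2 (adjusted p = 0.0854, and 0.0129 with the block) and 1.18 for Col4a1 (adjusted p = 0.405, and 0.125 with the block). In DN, Col4a1 had 10.77, 10.91 and 11.05 in induced and 9.98, 9.79 and 10.39 in non-induced cells (0.85, adjusted p = 0.595). Col4a2 in DN had 9.64, 10.10 and 10.00 in induced and 8.94, 9.48 and 9.23 in non-induced cells (0.70, adjusted p = 0.769). On average Col4a2 rose by 0.70 (SE 0.17, 1.62-fold, adjusted p = 0.0211), and Col4a1 had 0.55 (adjusted p = 0.117, and 0.0413 with the block). The Col4a2 call was lost with median scaling, without background correction and with the authors' processed intensities. Leaving out replicate set 1, 2 or 3 lost it too. Col4a5 and Col4a6 were called in no induction: Col4a5 in VE sp had 5.94, 5.87 and 6.99 in induced and 6.00, 6.64 and 7.02 in non-induced cells.

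Of the remaining classes, Col23a1 and Col16a1 responded. Col23a1 in VE sp had 8.70, 9.38 and 9.10 in induced cells and 7.90, 8.02 and 8.19 in non-induced cells, a rise of 1.02 (SE 0.20, 2.03-fold, adjusted p = 0.00922). The groups did not overlap, but the call was lost without induced VE sp replicate 2 (0.86, adjusted p = 0.0775) or non-induced VE sp replicate 1 (0.95, adjusted p = 0.0576). In CD41 sp it had 5.24, 5.35 and 5.22 in induced and 4.61, 4.71 and 4.98 in non-induced cells, in DP 6.53, 6.74 and 6.84 in induced and 6.42, 6.21 and 6.39 in non-induced cells, and in DN 6.51, 6.10 and 6.35 in induced and 6.10, 5.76 and 6.48 in non-induced cells. None of these was called, and the average rise was 0.52 (SE 0.10, adjusted p = 0.00372). Col16a1, a FACIT collagen of skin and other tissues, had 5.35, 6.18 and 5.92 in induced DN cells, against 4.52, 4.68 and 4.64 in non-induced DN, where it was not detected. It rose at least 1.81-fold (log2 difference 1.20, SE 0.17, adjusted p = 0.000437) and lay between 4.35 and 5.01 elsewhere, with no call in the other fractions.

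Other genes without a call in any comparison of ICN1 kept close values. Col9a1, a chain of the type IX collagen of cartilage, had 4.83, 5.20 and 5.27 in induced DN and 4.65, 4.95 and 4.99 in non-induced DN cells, and 4.33 to 5.52 elsewhere. Col9a2, its partner, had 5.18, 5.27 and 5.20 in induced DN and 5.22, 4.94 and 4.75 in non-induced DN cells, and 4.35 to 5.15 elsewhere. Col7a1 had 5.89, 5.96 and 6.17 in induced and 5.68, 5.84 and 6.03 in non-induced CD41 sp, 5.36, 5.30 and 5.46 in induced and 5.47, 5.18 and 4.67 in non-induced VE sp, and 6.09, 6.01 and 6.57 in induced and 6.35, 6.09 and 6.52 in non-induced DN cells. Col25a1 lay between 4.73 and 5.78 on induced arrays and between 5.06 and 5.91 on non-induced arrays. All of these ranges overlapped between the conditions.

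**Figure D5:**
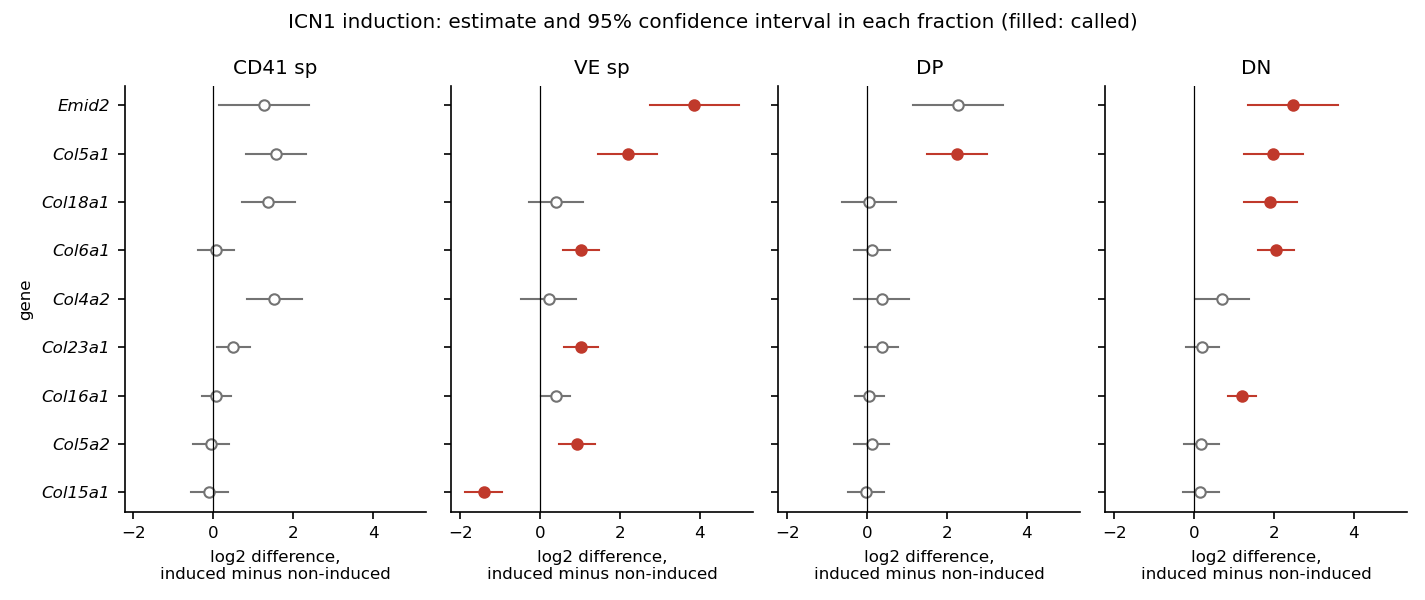
Log2 difference of induced minus non-induced cells in each fraction, with 95% confidence intervals, for the 9 collagen genes called in at least 1 comparison of ICN1 (within a fraction, on average or among fractions); filled points were called and open points were not. Col5a1 and Emid2 lay to the right of 0 in all 4 panels, Col6a1 at 2.06 in DN and 0.12 in DP, and Col15a1 in VE sp is the filled point to the left of 0.

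Whether the response differed among fractions was tested as an F test over 3 differences of responses. It called Col6a1 (adjusted p = 0.00719), where 0.177% of all genes were called. With the replicate block 5 collagen genes passed, Col6a1, Col18a1 (adjusted p = 0.000203), Col16a1 (0.0081), Col15a1 (0.0109) and Emid2 (0.0133), where 2.14% of all genes were called. The Col6a1 response in CD41 sp minus that in DN was -2.00 (SE 0.31, adjusted p = 0.00902), where 0.0626% of all genes were called. In DP minus DN it was -1.94 (SE 0.31, adjusted p = 0.0106; 0.136% of all genes called). These Col6a1 calls were all lost with the authors' processed intensities and on leaving out replicate set 1, 2 or 3. For VE sp minus DN the Col6a1 difference of -1.04 was not called (adjusted p = 0.351). Col15a1 was called for VE sp minus DN (-1.58, SE 0.31, adjusted p = 0.0379), where 0.136% of all genes were called. This call was lost on leaving out any 1 of 19 of the 24 arrays. In those fits the differences were -1.69 to -1.28, with adjusted p up to 0.14. For Col18a1, DP minus DN was -1.87 (adjusted p = 0.153, and 0.00015 with the block, where 0.594% of all genes were called), and the other probe detected on all 24 arrays gave -1.60 (adjusted p = 0.0362). VE sp minus DN was -1.51 for Col18a1 (adjusted p = 0.378, and 0.00183 with the block, where 1.28% were called). For Col16a1, CD41 sp minus DN was -1.13 (adjusted p = 0.14, and 0.0186 with the block, where 0.292% were called) and DP minus DN was -1.15 (adjusted p = 0.0666, and 0.00731 with the block). For Col5a1 the response minus that in DN was -0.41 in CD41 sp (95% interval -1.45 to 0.64), 0.21 in VE sp (-0.84 to 1.26) and 0.26 in DP (-0.78 to 1.31). None of these was called (adjusted p = 1), and the intervals do not show that the responses were alike.

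The genes that process and cross-link collagen were counted in the inductions too. Of 31 such genes on the array 24 were tested, and in the inductions 1 was called, Loxl1, a lysyl oxidase that cross-links elastin and collagen. It was called in VE sp, where 1.12% of all genes were called, 0.959% higher and 0.156% lower. Loxl1 had 5.72, 5.53 and 6.18 in induced VE sp cells, against 4.72, 4.83 and 4.51 in non-induced VE sp, where it was not detected (at least 1.72-fold, log2 difference 1.12, SE 0.19, adjusted p = 0.00312). With the block Leprel2 also passed in VE sp, where 4.33% of all genes were called, and Loxl1 passed in DN (0.65, adjusted p = 0.0465), where 4.09% were called. Serpinh1, the collagen chaperone, had log2 differences of 0.29 for CD41 sp, 0.09 for VE sp, -0.10 for DP and 0.30 for DN (SE 0.29 each), and was not called. P4ha1, a prolyl hydroxylase subunit, had 0.34, -0.33, -0.12 and 0.19 in the same order, and Plod2, a lysyl hydroxylase, had -0.09, 0.07, 0.00 and -0.24, none of them called. Lox itself was detected on no array.

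Between non-induced fractions the same genes gave many calls. In CD41 sp 13 of the 24 were lower than in DN and none was higher, where 15.7% of all genes were called, and with the block 15 were lower (30.3% called). The lower genes were led by Loxl1 (at least 7.46-fold, adjusted p = 1.41e-10), Adamts2, a propeptide-removing protease of fibrillar collagens (-3.03, adjusted p = 1.16e-08), and Pcolce, an enhancer of propeptide removal (at least 3.87-fold). Serpinh1 was lower (log2 difference -2.12, SE 0.29, adjusted p = 1.25e-05), and Plod2 and P4ha1 were lower as well (-1.55 and at least 1.55-fold). In VE sp 8 were higher and 6 lower than in DN, where 24.7% of all genes were called, and with the block 13 were higher and 8 lower (43.7% called). Sparc, a collagen-binding matrix protein, was higher by 1.93 (SE 0.25, adjusted p = 4.05e-06), Fkbp10, a chaperone of procollagen, by 1.42, and Leprel2, a prolyl 3-hydroxylase, by 1.22. Loxl1 was at least 7.65-fold lower there, and Adamts2 and Pcolce were lower too (-3.00 and -1.94). In DP 1 was higher (Sparc, 1.02) and 9 were lower, Loxl1 at least 7.93-fold and Adamts2 at least 7.27-fold, where 22.1% of all genes were called. With the block 5 were higher and 10 lower in DP (39.3% called). Removal of propeptides, a step of fibrillar collagens, had 4 tested genes, of which 4, 3 and 3 were lower in CD41 sp, VE sp and DP, and 0, 1 and 0 higher.

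Of 8 collagen receptors on the array 4 were tested. Itga11, the integrin subunit for type I collagen on mesenchymal cells, rose at least 1.39-fold in induced DN cells (log2 difference 0.62, SE 0.15, adjusted p = 0.045), where it was not detected without induction. With the block it also passed in CD41 sp (0.57, adjusted p = 0.0324). Ddr1, a receptor kinase for collagen on epithelia, was lower than in DN in non-induced CD41 sp (-1.68, adjusted p = 0.000166), VE sp (at least 2.81-fold) and DP (at least 2.91-fold). Itga1, the subunit of a receptor for type IV collagen, was higher in non-induced VE sp than in DN by 1.79 (SE 0.26, adjusted p = 1.72e-05).

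Markers of other cell types were read beside these results, and their part in them was not tested. In DN, where 5 collagens rose, 2 of 7 tested mesenchyme markers fell, Dcn (log2 difference -1.29, adjusted p = 3.8e-05) and Lum at least 1.49-fold, and none rose. Lum entered the tests through non-induced DN alone, so its fall rests in part on the detection filter. For that induction 0.97% of all genes were called, 0.772% higher and 0.198% lower. With the block 2 mesenchyme markers rose and 2 fell, where 4.09% of all genes were called. Summed over the 7 genes, the mesenchyme level on the linear scale was 1230 to 2210 in induced DN and 1180 to 1520 in non-induced DN cells. Of 6 visceral endoderm markers 2 fell in DN, Ttr (-3.04, SE 0.50, adjusted p = 0.00224) and Apoa1 (-1.99, adjusted p = 0.000232), with sums of 1260 to 2390 in induced and 1740 to 4400 in non-induced cells, and with the block 3 fell. Of 3 tested cartilage markers 2 rose in DN, Hapln1 (at least 3.38-fold, adjusted p = 9.23e-05) and Sox9 (0.86, adjusted p = 0.0299), with sums of 274 to 401 in induced and 324 to 400 in non-induced cells. Of 8 endothelial markers Esam1 rose in DN (2.01, SE 0.38, adjusted p = 0.00885), with sums of 514 to 941 in induced and 433 to 519 in non-induced DN cells, and Tie1, Cdh5 and Emcn were detected on no DN array of either condition.

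In VE sp, where 5 collagens rose and 1 fell, none of the markers was called (1.12% of all genes called). With the block 4 were, Alas2, Hapln1, Treml1 and Was, where 4.33% of all genes were called. The cartilage sum, which holds Hapln1, was 1450 to 1670 in induced and 830 to 1050 in non-induced VE sp cells, without overlap, and Sox9 was detected in neither. The endothelial sum was 28300 to 34000 in induced and 22100 to 33500 in non-induced VE sp cells. The parietal endoderm sum, of a cell type that lays down a thick basement membrane, was 4980 to 5520 in induced and 3950 to 4890 in non-induced VE sp cells, without overlap. In DP and CD41 sp no marker of any list was called with induction either (0.146% and 0.0938% of all genes called). With the block 1 endothelial marker fell in each, where 1.63% and 0.918% of all genes were called. The endothelial sum in DP was 8560 to 9680 in induced and 13400 to 14700 in non-induced cells. The cartilage sum in CD41 sp was 617 to 888 in induced and 1340 to 1770 in non-induced cells, without overlap. In DP the cartilage sum was 1320 to 1590 in induced and 1370 to 1380 in non-induced cells. Smooth muscle, epithelial and parietal endoderm lists had no call in any of the 4 inductions, with or without the block.

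Between non-induced fractions, where 15.7% of all genes were called in CD41 sp, 24.7% in VE sp and 22.1% in DP against DN, all 8 endothelial markers were higher in VE sp and in DP than in DN, and all 8 erythroid markers were lower in both, while 4 endothelial markers were higher in CD41 sp. All 4 epithelial markers were lower than in DN in every other fraction, with sums of 151 to 368 in the others and 4330 to 6700 in DN. Of 7 mesenchyme markers 6 were lower in CD41 sp, 5 in VE sp and 7 in DP than in DN. Of 6 visceral endoderm markers 5, 3 and 5 were lower, and of 6 parietal endoderm markers 3 were lower in CD41 sp (5 with the block) and 3 higher in VE sp. Of 4 smooth muscle markers 2, 3 and 3 were lower in CD41 sp, VE sp and DP, with 1 higher in VE sp and in DP. The mesenchyme markers Dcn and Lum, the smooth muscle marker Tagln and the visceral endoderm marker Amn were detected in no fraction but DN. Calls of these genes as lower than in DN rest in part on the detection filter. Of 9 megakaryocyte and blood markers 8 were higher in CD41 sp and in DP. Their sum ranged over 20700 to 42700 in CD41 sp, 5390 to 5540 in VE sp, 21300 to 27500 in DP and 1710 to 1940 in DN. The cartilage sum was lowest in DN, at 324 to 400, against 1340 to 1770 in CD41 sp, 830 to 1050 in VE sp and 1370 to 1380 in DP.

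The genes whose 8 group means were most like those of Col4a1 were sought as a description. Among the collagens Col4a2 had a Pearson r of 0.9922 over the 8 groups. The 5 genes outside the collagens with the highest r were Gna11 (0.9959), Luzp1 (0.9945), Snn (0.9905), Tm4sf6 (0.9903) and Lamb2 (0.9878), the last a laminin chain of basement membranes. Lamb2 averaged 8.47 in induced VE sp, 6.85 in DP, 5.49 in CD41 sp and 6.89 in DN, and 8.12, 6.64, 5.18 and 6.63 in the non-induced cells of the same fractions. The points share the same arrays, and the 4 fractions set most of the spread.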

How the data were processed

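The arrays were Illumina mouse expression beadchips, with RNA extracted by RNeasy mini kit, checked on a Bioanalyser and amplified with the Ambion MessageAmp kit, per the labels' protocols. The deposited tables, 1 for each replicate set of 8 arrays, hold a mean bead intensity that was not normalized and a detection p-value for each probe, per the file headers. The authors' processed intensities, also deposited and used as an alternative, are linear, uncentred values whose normalization the labels and headers do not name. In the table of replicate 1 the columns of induced DN and DP cells carry no time of induction, and were assigned because the other column of the fraction is named as non-induced.

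Intensities were background-corrected and quantile-normalized by the function neqc (limma 3.58.1, run in R 4.3.3, offset 16) and taken to log2. Of 25697 probes, 12894 passed a detection p of 0.05 throughout the 3 arrays of some group, and the brightest such probe of each symbol gave 9591 genes. A model of the 8 group means (lmFit and eBayes, 16 residual degrees of freedom) was tested on simulated data first, and p-values were adjusted over all 9591 genes by the Benjamini-Hochberg method, with calls at an adjusted p under 0.05. Where a probe was detected on none of the 3 arrays of a group, the fold is a bound, and where the lower group was detected on 1 or 2 arrays no fold is given. For a bound, the brighter group's mean was set against a floor, for which each array gave its dimmest detected signal or, if higher, the value of the probe itself. A single value in parentheses beside a comparison is a log2 difference. Levels were never compared between probes, and array number and signal limit the precision.

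In all comparisons the spread was shared over the 24 arrays. Arrays with the same replicate number deviated together from their group means (r 0.288 to 0.773 over 84 pairs, against -0.623 to 0.0977 over 168 other pairs), so the numbers pair the arrays and each set of 8 arrays was used as a block in an alternative fit. Per-array values are given for every collagen called in a comparison of ICN1 and for the 3 of each class with the highest signal, and at most 3 genes of each other list are named beside fixed ones. The collagen classes, gene lists and members were chosen with earlier results of these data known. Other alternatives were median scaling, no background correction, the authors' values, no detection filter, detection in more groups, the mean of all probes, array weights, and leaving out each array or replicate set.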

Additional observations from a re-analysis of the deposited data

Results flagged for a closer look

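The response of Col6a1, a type VI chain, differed among fractions when the difference itself was tested (limma's F test, adjusted p = 0.00719). Its response in CD41 sp minus that in DN was -2.00, and in DP minus that in DN it was -1.94. The other detected Col6a1 probe gave -2.20 (adjusted p = 0.00487) and -2.11 (adjusted p = 0.0045) for the same differences. Both of the probes that were detected therefore gave the same direction, and the gene was not detected in CD41 sp or DP by the tested probe, with or without induction. For the tested probe, the F test call and both single differences were lost with the authors' processed intensities and on leaving out replicate set 1, 2 or 3. The DP minus DN call was lost with median scaling and without background correction as well.

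Col15a1, a multiplexin, was called for its response in VE sp minus that in DN, at -1.58 (limma's adjusted p = 0.0379). The call was lost under 26 of 35 alternatives, among them median scaling, no background correction and the authors' processed intensities. The F test among fractions did not call Col15a1 (adjusted p = 0.0657, and 0.0109 with the block). In VE sp the induced minus non-induced difference was -1.42, and it was negative in each replicate set, at -1.16, -1.76 and -1.35. In DN, where the probe was detected on no array, it was positive in each set, at 0.19, 0.08 and 0.21.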

How the results depend on the processing

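Of 108 collagen changes called, none reversed under any alternative and 52 were never lost where their gene was tested. Detection in at least 2 groups left 92 of the 108 to be tested, and these were kept. The genes of the others dropped out there, which was not counted as a loss. Losses numbered 41 with the authors' processed intensities, 20 with median scaling, 16 without background correction, 6 without the detection filter, 3 with array weights, and 0 with the mean of all probes. Leaving out replicate set 1, 2 or 3 lost 40, 31 and 38, and leaving out some single array lost 27. With the replicate block, which follows the pairing of the arrays by number, all 108 calls were kept, and the collagen calls it added are given with the results. The block gave 3 collagen calls for the induction in CD41 sp (0 without it), 2 in DP (1) and 5 for the difference among fractions (1). Array weights gave 1, 2 and 2 for the same. The mean of all probes gave 1 in CD41 sp and 2 among fractions, and no detection filter gave 2 among fractions. Median scaling gave 3 calls in VE sp (6 in the report) and 4 on average (7). The authors' values gave 2 in CD41 sp, 2 in VE sp, 3 in DN (5), 4 on average, 0 among fractions, and 5 each for non-induced CD41 sp and DP against DN (10 and 8). The cause of these shifts was not tested.

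Leaving out 1 array or set gave 0 to 1 call in CD41 sp, 0 to 6 in VE sp, 0 to 2 in DP, 1 to 5 in DN, 3 to 8 on average and 0 to 2 among fractions. Against DN it gave 6 to 10 in non-induced CD41 sp, 9 to 12 in VE sp and 5 to 9 in DP, and 9 to 13, 9 to 14 and 5 to 10 in the induced fractions. Between the other fractions it gave 4 to 7 for DP against VE sp, 4 to 5 for CD41 sp against DP and 6 to 9 for CD41 sp against VE sp. Without the 2 arrays of lowest weight, an alternative chosen after seeing the data, 8 of the 108 calls were lost. Median scaling moved the median of all genes by -0.18 for the induction in CD41 sp, 0.13 in VE sp, -0.12 in DP, -0.16 for non-induced VE sp against DN, 0.25 for DP against VE sp and 0.22 for CD41 sp against VE sp, and by -0.17 and 0.15 for the response in CD41 sp and VE sp minus that in DN. It moved the share of all calls that were higher in VE sp with induction to 100%, against 86%, and on average to 80.3%, against 68.3%. Weak signal limits most of the collagens, since 16 of 37 genes were not measurable and bounds stand in for many folds.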
